A study of Homo sapiens with 18 samples.

Results

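The genes described here are 5 metallothionein genes, MT1E, MT1F, MT1G, MT1X and MT2A, together with MTF1 and SLC30A1, 7 of the 58051 genes counted in the series. They were chosen by name, as the genes that carry these symbols in GENCODE 29, at a time when earlier results of these data were known. The rule itself uses no measured value. Polyadenylated RNA was sequenced in 18 libraries, 6 groups of 3, all made from KBM7, an established human cell line derived from chronic myelogenous leukaemia. One group received the solvent DMSO. The other groups received dCeMM-1 (named Hit4 in the sample titles), dCeMM-2 (Hit1), dCeMM-3 (Hit2) or dCeMM-4 (Hit8), each at 10 times its EC50, or THZ531 at 600 nM. All 6 groups were exposed for 5 h, and the labels name no genetic change in the cells. As background, dCeMM-1 is known to cause loss of the splicing factor RBM39, dCeMM-2, dCeMM-3 and dCeMM-4 to cause loss of cyclin K, and THZ531 to inhibit the cyclin K partner kinases CDK12 and CDK13. All values come from 1 cell line at 1 time, the EC50 concentrations are not stated in the labels, and the dose of THZ531 is not matched to the others.

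Metallothioneins are small, cysteine-rich proteins of the cytosol and nucleus that bind zinc, copper and cadmium and buffer the free zinc of the cell. MTF1 is a zinc-finger transcription factor that binds metal response elements when zinc is plentiful and is known to activate the metallothionein genes and SLC30A1. SLC30A1 encodes ZnT1, the transporter that exports zinc across the plasma membrane. Metallothionein genes are also known to respond to glucocorticoids and to oxidative stress.

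The metallothioneins are so alike in sequence that the reads of 1 gene can be hard to assign, and their coding sequences are shown for that reason. The 4 metallothionein members with enough counts to test are given 5′ to 3′ from the start to the stop codon, from the GENCODE 29 transcripts on GRCh38, with capitals marking each base that differs from MT2A after alignment.
MT2A: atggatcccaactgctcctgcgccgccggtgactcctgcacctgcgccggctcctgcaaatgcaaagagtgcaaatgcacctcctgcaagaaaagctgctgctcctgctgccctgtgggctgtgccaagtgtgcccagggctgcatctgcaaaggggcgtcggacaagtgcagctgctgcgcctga
MT1E: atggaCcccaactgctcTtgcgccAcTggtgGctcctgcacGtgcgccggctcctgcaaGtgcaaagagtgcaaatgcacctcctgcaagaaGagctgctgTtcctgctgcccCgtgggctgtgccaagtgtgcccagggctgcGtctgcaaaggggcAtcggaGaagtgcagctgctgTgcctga
MT1F: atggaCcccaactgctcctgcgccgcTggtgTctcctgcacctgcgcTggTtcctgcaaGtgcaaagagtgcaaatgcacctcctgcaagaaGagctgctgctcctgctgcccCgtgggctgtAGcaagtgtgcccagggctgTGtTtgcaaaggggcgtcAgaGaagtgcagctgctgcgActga
MT1X: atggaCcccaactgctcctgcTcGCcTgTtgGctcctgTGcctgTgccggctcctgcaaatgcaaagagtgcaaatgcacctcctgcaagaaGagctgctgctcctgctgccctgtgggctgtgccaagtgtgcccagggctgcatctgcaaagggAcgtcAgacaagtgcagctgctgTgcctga
Each of these 4 sequences is 186 bases long and encodes 61 amino acids, of which 20 are cysteines. MT1E and MT1X were each 92.5% identical to MT2A and differed from it at 14 bases, and MT1F was 91.4% identical and differed at 16. MT1G, the remaining member, was 93.7% identical and has 62 codons. Over the whole main transcript, 5.34% of the 50-base windows of MT1E, 3.59% of those of MT1F and 4.89% of those of MT2A also occurred in another gene's transcripts. For MT1X the share was 45.1%, mostly with AC026461.1, a gene annotated over it on the same strand with 321 exonic bases in common. For MT1G it was 20.2%, and no 50-base window of SLC30A1 was shared. At 100 bases no window of MT1E, MT1F, MT1G or MT2A was shared, and 19.1% of those of MT1X were. Counts of MT1X and MT1G are therefore less certain than those of the other members, since reads placed at several positions or falling on overlapping genes were left out of the gene counts.

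The promoters bear on the grouping of the members, because MTF1 acts through metal response elements. The 250 bases before the RefSeq start are printed 5′ to 3′ along the gene's strand (RefSeq, GRCh38.p14), for the 4 members whose promoter was at hand. Capitals mark each match to the core of the element, TGCGCNC or TGCACNC, on either strand. The windows are chr16:56608334-56608583 (plus strand) for MT2A, chr16:56682220-56682469 (plus strand) for MT1X, chr1:211579162-211579411 (minus strand) for SLC30A1 and chr1:37859593-37859842 (minus strand) for MTF1.
MT2A: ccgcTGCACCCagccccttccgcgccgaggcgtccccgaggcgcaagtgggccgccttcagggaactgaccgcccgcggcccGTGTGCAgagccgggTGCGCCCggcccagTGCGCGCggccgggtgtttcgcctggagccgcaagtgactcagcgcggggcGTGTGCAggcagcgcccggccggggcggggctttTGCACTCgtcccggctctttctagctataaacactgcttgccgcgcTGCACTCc
MT1X: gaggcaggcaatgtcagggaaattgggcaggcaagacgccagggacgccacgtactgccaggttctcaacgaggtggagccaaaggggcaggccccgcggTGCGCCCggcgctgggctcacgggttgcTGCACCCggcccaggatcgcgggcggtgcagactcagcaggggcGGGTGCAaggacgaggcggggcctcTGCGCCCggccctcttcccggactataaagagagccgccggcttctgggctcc
SLC30A1: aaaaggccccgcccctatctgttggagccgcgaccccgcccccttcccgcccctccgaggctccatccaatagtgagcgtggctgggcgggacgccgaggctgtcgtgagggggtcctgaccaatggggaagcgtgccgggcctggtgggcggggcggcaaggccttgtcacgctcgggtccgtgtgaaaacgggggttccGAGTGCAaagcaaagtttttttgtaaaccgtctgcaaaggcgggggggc
MTF1: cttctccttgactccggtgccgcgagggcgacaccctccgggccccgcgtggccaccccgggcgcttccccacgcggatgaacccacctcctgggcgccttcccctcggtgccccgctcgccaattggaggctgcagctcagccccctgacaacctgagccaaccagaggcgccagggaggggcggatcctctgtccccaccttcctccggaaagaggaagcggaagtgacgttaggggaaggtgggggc
The MT2A window held 7 matches, and 0.0313% of the 35116 promoters in the same table held as many. The MT1X window held 4, a number reached by 0.370% of promoters. SLC30A1 had 1 match, where 24.8% of all promoters had at least 1, and MTF1 had 0 in this window. The RefSeq starts used here differ from the GENCODE gene positions given below. The SLC30A1 window begins at 211579162, upstream of the GENCODE start at 211578742, and the bases between were not searched. The MT2A window lies inside the GENCODE gene, which occupies 56608199 to 56609497. The promoters of MT1E, MT1F and MT1G were not analysed here. A match describes the letters only and is not a measured binding site.

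The 5 metallothionein members lie in a cluster of 16 metallothionein genes and pseudogenes that spans 119.15 kb of chromosome 16 in GRCh38. MT2A occupies positions 56608199 to 56609497, MT1E 56625475 to 56627112, MT1F 56657694 to 56660698 and MT1X 56682424 to 56684196, all on the plus strand. MT1G occupies 56666731 to 56668065 on the minus strand. MTF1 lies on chromosome 1 at 37809567 to 37859620 and SLC30A1 on the same chromosome at 211571568 to 211578742, both on the minus strand. An antisense gene, AL929472.4, lies over MTF1 without touching its exons. The labels do not state whether counting used strand.

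Gene counts per library ranged from 4598576 to 17943571, and DMSO replicate 3 was the shallowest. Libraries were put on a common scale in 2 ways. The TMM scale holds most genes near no change, so a fold change on it is relative to the other genes, and levels on it are given as CPM, counts scaled to library size. The spike-in scale uses synthetic ERCC and SIRV RNAs added during preparation, and on it the median log2 fold change of all 15055 tested genes was 0.10 with dCeMM-1, -1.80 with dCeMM-2, -1.96 with dCeMM-3, -0.56 with dCeMM-4 and -1.94 with THZ531. The same medians on the TMM scale were 0.03, -0.02, -0.15, 0.01 and -0.10. Directions below are on the TMM scale unless the spike-in scale is named, and they are relative. In these bulk samples, fewer cells and less RNA per cell cannot be told apart. Of 10 blood cell markers, 9 were above 1 CPM in every group. A difference was called when its Benjamini-Hochberg adjusted p over all tested genes, from edgeR's quasi-likelihood test, was under 0.05. Nothing in the labels tells whether replicates were grown as separate cultures, so a p-value measures only the spread between these libraries.

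Relative to the other genes, MT1E and MT2A rose in all 5 treated groups, with dCeMM-1 only slightly, and most with dCeMM-2 and THZ531, where MT1E was 5.67-fold and 5.55-fold higher and MT2A 4.31-fold and 4.35-fold higher than with DMSO. Of these rises, the spike-in scale kept a call only for MT1E with dCeMM-2 and THZ531 and MT2A with dCeMM-4, and with dCeMM-3 it called both genes lower. MT1X rose with dCeMM-2, dCeMM-4 and THZ531 and fell with dCeMM-3, whereas MT1F rose with dCeMM-1 and fell with dCeMM-3 and dCeMM-4. None of the MT1X rises and no rise of MT1F was called by spike-in scaling. The zinc exporter SLC30A1 rose with dCeMM-1, dCeMM-2 and dCeMM-4 and fell with dCeMM-3 and THZ531. Spike-in scaling called none of its rises and called it lower with dCeMM-2, dCeMM-3 and THZ531. MTF1 fell 9.45-fold with dCeMM-3, 5.74-fold with dCeMM-2 and 5.75-fold with THZ531, and these falls were larger on the spike-in scale.

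Together the 5 metallothionein members made up 0.0451% to 0.0475% of gene counts in the DMSO libraries. They made up 0.172% to 0.178% with dCeMM-2 and 0.169% to 0.176% with THZ531. Their summed level was 417 ± 18.4 CPM in DMSO, 1897 ± 55.4 with dCeMM-2 and 1891 ± 60.9 with THZ531 (SD, n = 3 each). With dCeMM-1, dCeMM-3 and dCeMM-4 the sum was 517 ± 16.6, 602 ± 8.72 and 810 ± 26.0 CPM, and every treated library of the 5 groups lay above the highest DMSO library, at 434 CPM. Scaled by spike-ins, with the DMSO libraries set to average the CPM scale, the sum was 429 ± 40.6 in DMSO, 566 ± 93.0 with dCeMM-2, 542 ± 106 with THZ531, 553 ± 52.2 with dCeMM-1 and 565 ± 130.5 with dCeMM-4. With dCeMM-3 it was 175 ± 30.9, below DMSO. Alignments to more than 1 position, which were not counted, numbered 42.3 to 45.8 per 100 gene counts in DMSO, 64.3 to 66.6 with dCeMM-2, 71.7 to 89.9 with dCeMM-3 and 66.8 to 73.8 with THZ531, and their part in these sums was not tested. Mitochondrial genes took 4.62% to 5.89% of gene counts in DMSO, 4.73% to 5.67% with dCeMM-1, 5.09% to 9.10% with dCeMM-2, 10.5% to 14.9% with dCeMM-3, 4.58% to 7.30% with dCeMM-4 and 8.17% to 12.9% with THZ531, and their part was not tested either. The highest THZ531 value was that of replicate 1, and without this library the log2 fold changes with THZ531 were 2.44 for MT1E, 2.06 for MT2A and -2.73 for MTF1.

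In DMSO, MT2A and MT1E were the most abundant members per length of the main transcript, at 256 ± 9.50 and 237 ± 18.9 CPM per kb (SD, n = 3), a difference within their spread. MT1F followed at 45.8 ± 1.40, MT1X at 38.8 ± 2.51, SLC30A1 at 18.1 ± 2.49 and MTF1 at 4.23 ± 0.384 CPM per kb. With dCeMM-2, MT1E at 1352 ± 16.5 CPM per kb stood above MT2A at 1104 ± 63.9. With dCeMM-3 the order of these genes was MT2A at 457 ± 7.35 and MT1E at 301 ± 5.62, and MT1X at 14.1 ± 2.38 lay below MT1F at 34.6 ± 0.494, as it did in DMSO. Divided by all annotated exons instead, which are longer than the main transcript for every metallothionein member, MT1E and MT2A in DMSO were at 159 ± 12.6 and 155 ± 5.75 CPM per kb.

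**Figure D1:**
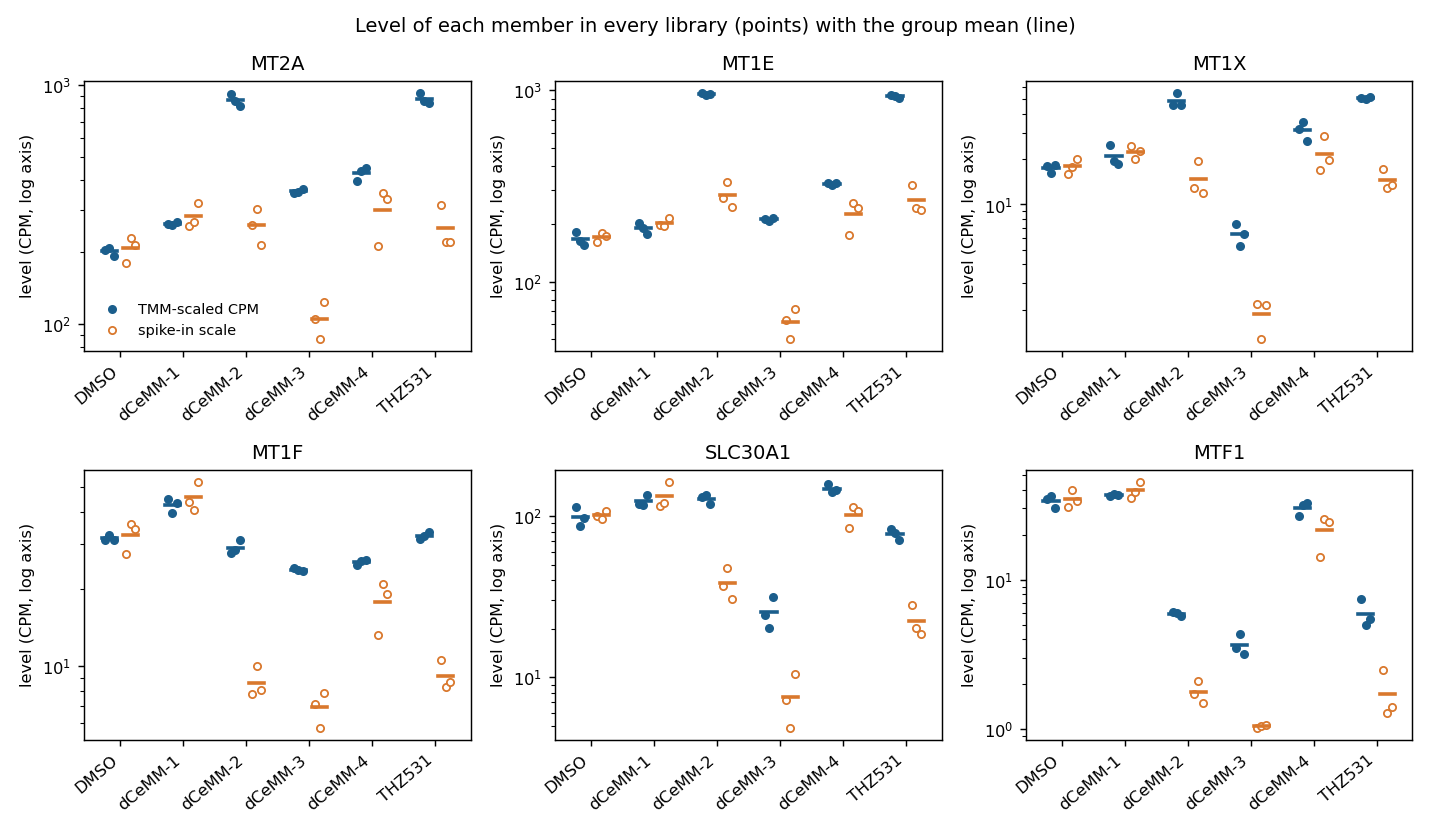
Level of each tested member in every library, by group, on a log axis. Filled points are CPM on the TMM scale and open points are levels on the spike-in scale. Points are libraries and lines are means of 3. On the TMM scale MT1E and MT2A are highest with dCeMM-2 and THZ531, and MT1X and SLC30A1 are lowest with dCeMM-3. MTF1 is low with dCeMM-2, dCeMM-3 and THZ531. On the spike-in scale MT2A has its highest mean with dCeMM-4, at 300 against 282 with dCeMM-1, 259 with dCeMM-2 and 252 with THZ531. The dCeMM-4 libraries overlap DMSO on that scale.

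MT1E was at 182, 164 and 156 CPM in DMSO replicates 1, 2 and 3. It was at 964, 940 and 951 CPM with dCeMM-2 and at 948, 938 and 907 with THZ531, so that neither group came near DMSO. With dCeMM-4 it was at 328, 319.5 and 327 CPM, with dCeMM-3 at 213, 208 and 215, and with dCeMM-1 at 204, 189.7 and 178, the last of which overlapped DMSO. The log2 fold changes were 2.50 (SE 0.06, adjusted p = 3.96e-29) with dCeMM-2, 2.47 (SE 0.06, 4.39e-29) with THZ531, 0.95 (SE 0.06, 1.27e-16) with dCeMM-4 and 0.34 (SE 0.06, 5.80e-06) with dCeMM-3. In each of the dCeMM-2 and THZ531 comparisons only about 1.95% and 2.12% of tested genes had a larger rise. The rise with dCeMM-1, 0.18 (SE 0.06, adjusted p = 0.0204), was not called after leaving out DMSO replicate 2 (0.17, adjusted p = 0.0884), DMSO replicate 3 (0.14, 0.130) or dCeMM-1 replicate 1 (0.13, 0.159), nor with DESeq2 (0.0520), its size factors (0.0685) or no filter on low counts (0.0923). By spike-in scaling MT1E was 0.73 (adjusted p = 0.000440) higher with dCeMM-2 and 0.64 (0.00210) higher with THZ531, was not called with dCeMM-4 (0.40, 0.0858) or dCeMM-1 (0.25, 0.601), and fell by 1.47 (1.89e-12) with dCeMM-3.

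MT2A, usually the most abundant human metallothionein, was at 204, 207 and 193 CPM in DMSO. It reached 921, 860.5 and 821 CPM with dCeMM-2 and 926, 859 and 844 with THZ531. With dCeMM-4 it was at 396, 438 and 451 CPM, with dCeMM-3 at 355, 357 and 366, and with dCeMM-1 at 263, 260 and 266. No treated library overlapped DMSO on this scale. The log2 fold changes were 2.11 (SE 0.06, adjusted p = 6.29e-27) with dCeMM-2, 2.12 (SE 0.06, 2.52e-27) with THZ531, 1.09 (SE 0.06, 3.22e-18) with dCeMM-4, 0.83 (SE 0.06, 2.33e-15) with dCeMM-3 and 0.38 (SE 0.06, 6.42e-06) with dCeMM-1. Scaled by spike-ins, the dCeMM-2 and THZ531 libraries overlapped DMSO and gave 0.32 (adjusted p = 0.122) and 0.28 (0.179). On that scale MT2A was 0.53 (0.0166) higher with dCeMM-4, was not called with dCeMM-1 (0.45, 0.206), and fell by 0.99 (1.76e-06) with dCeMM-3.

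MT1X rose with 3 compounds and fell with dCeMM-3. Its level was 18.1, 16.2 and 18.2 CPM in DMSO, 45.5, 54.8 and 46.0 with dCeMM-2, and 51.0, 50.3 and 51.9 with THZ531. With dCeMM-4 it was 31.9, 35.3 and 26.6 CPM, and with dCeMM-1 it was 25.0, 19.5 and 18.6. With dCeMM-3 it was 7.43, 5.29 and 6.36 CPM, below every other library of the series. MT1X rose by 1.50 on the log2 scale with dCeMM-2 (SE 0.11, adjusted p = 6.33e-15), by 1.56 with THZ531 (SE 0.11, 1.25e-15) and by 0.85 with dCeMM-4 (SE 0.11, 2.00e-08), and fell by 1.42 with dCeMM-3 (SE 0.14, 1.56e-11). With dCeMM-1 the log2 fold change of 0.27 (SE 0.12, adjusted p = 0.0733) was not called, although it was called without dCeMM-1 replicate 3 (0.35, 0.0373). By spike-in scaling the values of MT1X with dCeMM-2 and THZ531 turned to -0.28 (0.243) and -0.29 (0.216), neither called, that with dCeMM-4 was 0.29 (0.290), and with dCeMM-3 it fell by 3.25 (2.45e-37).

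MT1F was not called with dCeMM-2 or THZ531, the compounds with which the other tested metallothionein members rose most. It was at 31.1, 32.7 and 31.0 CPM in DMSO, at 27.6, 28.4 and 31.1 with dCeMM-2 and at 31.4, 32.3 and 33.3 with THZ531, and both treated groups overlapped DMSO. The log2 fold changes were -0.13 with dCeMM-2 (95% interval -0.32 to 0.05, adjusted p = 0.149) and 0.03 with THZ531 (-0.15 to 0.21, adjusted p = 0.765). The THZ531 value was called higher when only those 2 groups were fitted (0.21, adjusted p = 0.0318) and with the size factors of DESeq2 (0.18, 0.0471). With dCeMM-1 MT1F was at 44.9, 39.7 and 43.3 CPM, above every DMSO library, and rose by 0.43 (SE 0.08, adjusted p = 6.71e-05). With dCeMM-3 it was at 24.2, 23.8 and 23.5 CPM and fell by 0.41 (SE 0.09, 4.73e-05), and with dCeMM-4 at 24.9, 25.9 and 25.9 CPM it fell by 0.31 (SE 0.08, 0.00119). The fall with dCeMM-3 was -0.19 and not called (0.129) when only the 2 groups were fitted, and that with dCeMM-4 was not called by DESeq2 (0.0540). By spike-in scaling MT1F was called lower with dCeMM-2 (-1.91), dCeMM-3 (-2.23), THZ531 (-1.82) and dCeMM-4 (-0.87), and was not called with dCeMM-1 (0.49, adjusted p = 0.203).

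MT1G was barely detected. It had 18 reads in all 18 libraries together, with 0 in every library of DMSO and dCeMM-3, 3, 3 and 0 reads with dCeMM-2, 5, 2 and 0 with THZ531, 1, 1 and 0 with dCeMM-1, and 1 in each library of dCeMM-4. It did not pass the filter on low counts, and no fold is given.

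**Figure D2:**
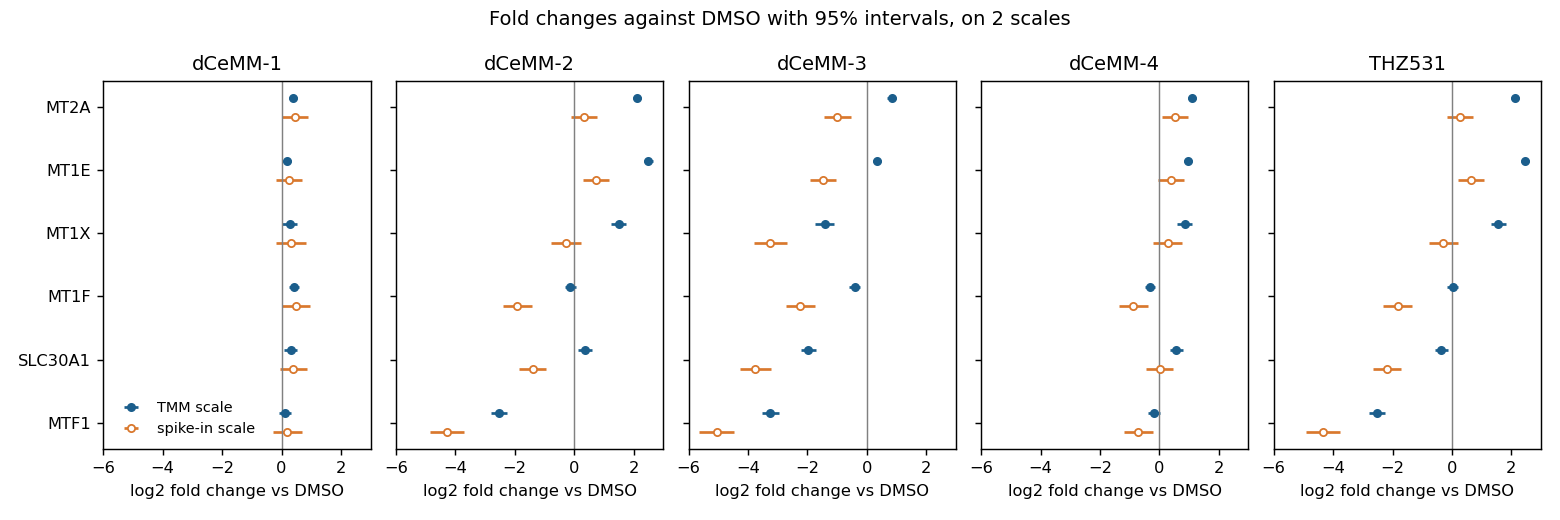
Log2 fold change of each tested member against DMSO, with 95% intervals, on the TMM and the spike-in scale, 1 panel per compound. With dCeMM-2 and THZ531 the spike-in values sit to the left of the TMM values for every gene, and MTF1 stays far below 0 on both scales.

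The scale does not enter a ratio between 2 genes of the same library. For each read of MT1F there were 5.85, 5.00 and 5.02 reads of MT1E in the DMSO libraries. The ratio was 34.9, 33.1 and 30.5 with dCeMM-2, 30.2, 29.1 and 27.2 with THZ531, 13.2, 12.3 and 12.6 with dCeMM-4 and 8.81, 8.70 and 9.15 with dCeMM-3. With dCeMM-1 it was 4.53, 4.77 and 4.12, lower than in each DMSO library. None of the 5 groups overlapped DMSO. Averaged on the log2 scale, the ratio was 6.21-fold higher with dCeMM-2 and 5.46-fold higher with THZ531. This unequal behaviour of MT1E and MT1F does not rest on either scale.

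Reads of MT1X per read of MT2A numbered 0.0887, 0.0781 and 0.0944 in DMSO and 0.0209, 0.0148 and 0.0174 with dCeMM-3, without overlap and 4.95-fold lower when averaged on the log2 scale. Their mean was 0.0563 with dCeMM-2, 0.0584 with THZ531, 0.0799 with dCeMM-1 and 0.0734 with dCeMM-4, against 0.0871 in DMSO. The mean ratio of MT1E to MT2A was 0.831 in DMSO, 1.10 with dCeMM-2, 1.06 with THZ531, 0.590 with dCeMM-3 and 0.725 with dCeMM-1, without overlap between these groups and DMSO. With dCeMM-4 it was 0.761 and overlapped DMSO (exact permutation p = 0.3). Over 5 ratios in 5 comparisons, 25 in all, an exact two-sided permutation test of 3 libraries against 3 cannot go below p = 0.1, which adjusts to 0.132, and this was the value for each ratio named here as not overlapping DMSO.

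**Figure D3:**
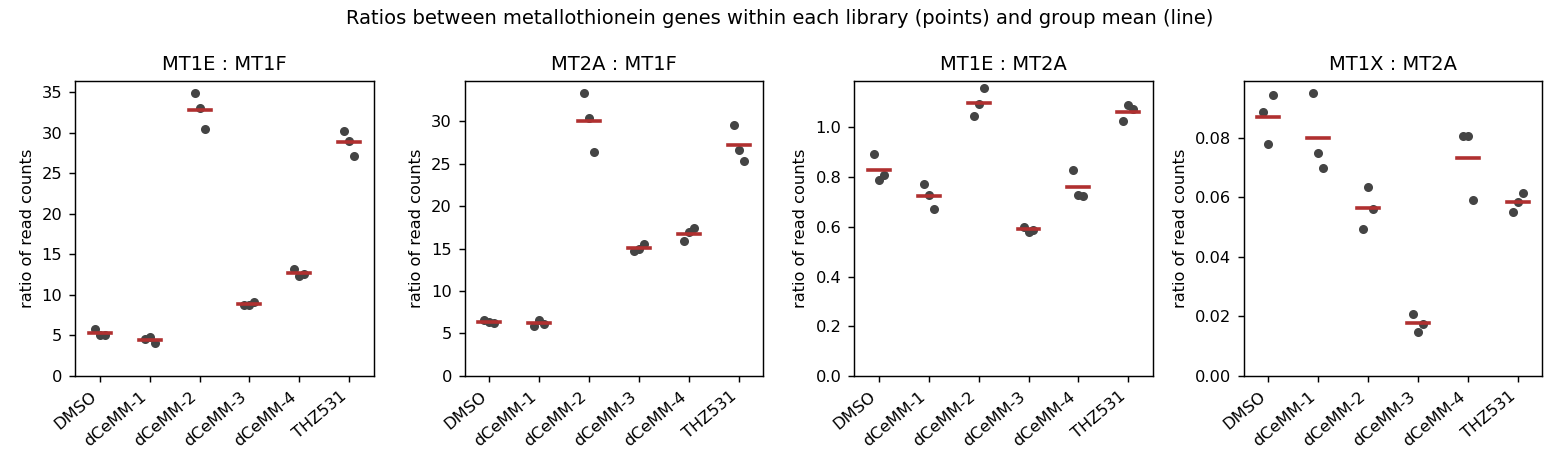
Ratios of read counts between metallothionein genes within each library, by group, with libraries as points and group means as lines. The ratio of MT1E to MT1F is highest with dCeMM-2 and THZ531, at 27.2 to 34.9 against 5.00 to 5.85 in DMSO, and the ratio of MT1X to MT2A is lowest with dCeMM-3.

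Among the 15 other metallothionein genes and pseudogenes of the annotation that were looked up, MT1M and the pseudogene MT1JP passed the filter. MT1M, another member of the MT1 group of the cluster, was at 25.5, 27.5 and 22.04 CPM in DMSO, 79.5, 67.8 and 67.4 with dCeMM-2 and 96.3, 91.9 and 86.4 with THZ531, without overlap. It rose by 1.84 with THZ531, 1.49 with dCeMM-2, 0.80 with dCeMM-4 and 0.64 with dCeMM-3, while with dCeMM-1 the value was 0.06 (adjusted p = 0.656). By spike-in scaling it was lower with dCeMM-3 (-1.15, adjusted p = 3.62e-07) and called in no other comparison with DMSO. Relative to the other genes MT1M had a direction opposite to that of MT1X with dCeMM-3.

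MT1JP had 1 or 2 reads in each DMSO library and 24, 13 and 22 with dCeMM-3. Its rise with dCeMM-3, 3.91 (SE 0.57, adjusted p = 9.05e-08), stayed called on the spike-in scale (2.19, 0.00282). It also rose with dCeMM-2 (2.39, 0.00333) and THZ531 (2.41, 0.00246), neither of which was called on the spike-in scale. These counts are low, and 35 of the 655 windows of 50 bases of the MT1E transcript also occur in MT1JP. MT1P3, MT1A, MT1HL1, MT1H and MT1P1 had 55, 15, 11, 10 and 10 reads over all libraries and were not tested. MT3 had 1 read and MT4 had 0.

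**Figure D4:**
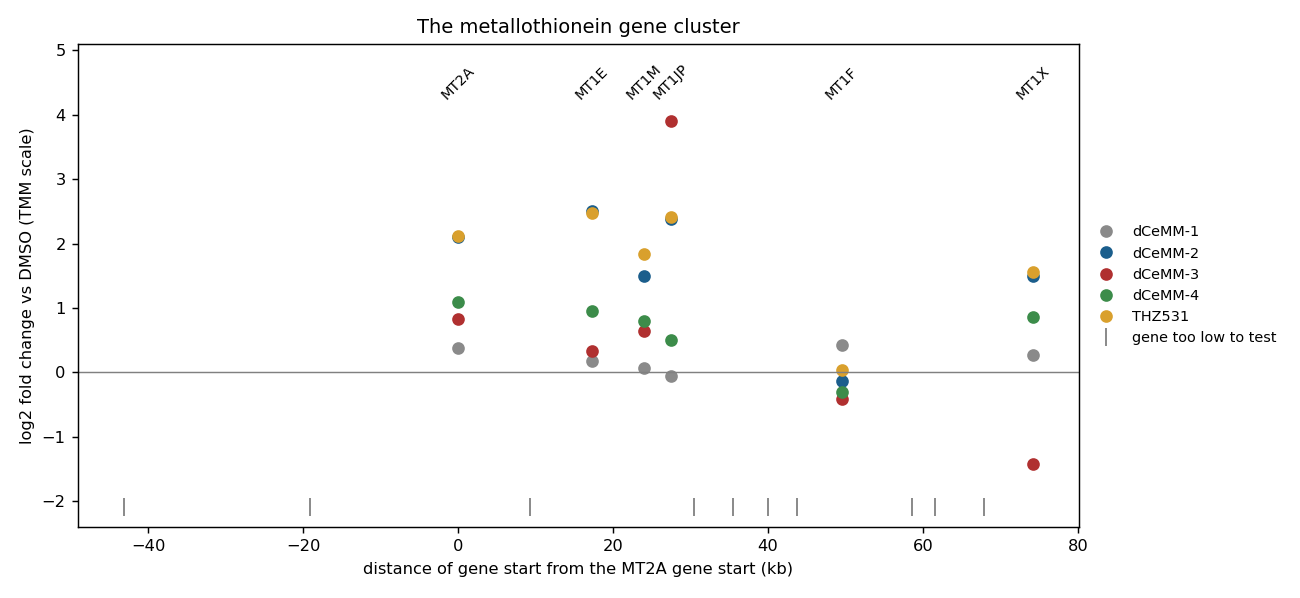
Log2 fold change against DMSO on the TMM scale of the tested genes of the metallothionein cluster, by distance of the gene start from that of MT2A in kb. MT2A, MT1E and MT1M lie above 0 with all of dCeMM-2, dCeMM-3, dCeMM-4 and THZ531, and MT1F and MT1X at the far end fall below 0 with dCeMM-3.

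SLC30A1, the zinc exporter, rose with 3 compounds and fell with 2 on the TMM scale. It was at 114, 87.1 and 96.6 CPM in DMSO, 131, 134 and 119 with dCeMM-2, 159, 140.4 and 144 with dCeMM-4 and 119, 117 and 134 with dCeMM-1. With THZ531 it was at 82.7, 78.6 and 71.3 CPM, and with dCeMM-3 at 24.4, 20.1 and 31.3. The first 3 groups lay above DMSO and the last 2 below it, with no overlap. SLC30A1 rose by 0.57 with dCeMM-4 (SE 0.10, adjusted p = 9.52e-06), 0.37 with dCeMM-2 (SE 0.10, 0.00183) and 0.31 with dCeMM-1 (SE 0.10, 0.0171), and fell by 1.96 with dCeMM-3 (SE 0.11, 1.19e-15) and 0.36 with THZ531 (SE 0.10, 0.00256).

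Some of these calls rested on single libraries or settings. The rise of SLC30A1 with dCeMM-1 was not called without DMSO replicate 2 (0.22, adjusted p = 0.144), DMSO replicate 3 (0.30, 0.0583) or dCeMM-1 replicate 3 (0.25, 0.0995). The fall with THZ531 was not called with the size factors of DESeq2 (-0.20, 0.0585), by DESeq2 (0.0705) or in a fit of the 2 groups alone (-0.17, 0.0572). Scaled by spike-ins, SLC30A1 was lower with dCeMM-2 (-1.40, adjusted p = 1.23e-10), dCeMM-3 (-3.75, 4.26e-56) and THZ531 (-2.18, 6.77e-23), and close to DMSO with dCeMM-4 (0.01, 95% interval -0.45 to 0.47) and not called with dCeMM-1 (0.40, 0.321).

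MTF1, the transcription factor that senses zinc, was at 34.8, 36.1 and 30.3 CPM in DMSO. It was at 6.09, 5.99 and 5.74 CPM with dCeMM-2, 3.49, 4.35 and 3.18 with dCeMM-3 and 7.39, 5.00 and 5.44 with THZ531, far below DMSO in each library. With dCeMM-4 it was at 26.8, 31.5 and 32.9 CPM, and with dCeMM-1 at 36.2, 37.8 and 37.2. MTF1 fell by 3.24 with dCeMM-3 (SE 0.13, adjusted p = 2.92e-23), by 2.52 with dCeMM-2 (SE 0.13, 2.01e-20) and by 2.52 with THZ531 (SE 0.12, 8.65e-21). At least 94.6% of tested genes had a higher log2 fold change in each of these 3 comparisons. With dCeMM-4 the value was -0.17 (95% interval -0.38 to 0.04, adjusted p = 0.112), and with dCeMM-1 it was 0.11 (-0.09 to 0.32, 0.391). By spike-in scaling MTF1 fell by 4.28, 5.05 and 4.34 with dCeMM-2, dCeMM-3 and THZ531 and by 0.70 with dCeMM-4 (adjusted p = 0.00368). In the groups where its RNA was lowest, MT1E and MT2A RNA were both above DMSO on the TMM scale, and with dCeMM-3 both were below it on the spike-in scale.

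MTF1 spans 50054 bases, against 1299 to 3005 for the 4 tested metallothionein members and 7175 for SLC30A1. Whether gene length has a part in the different directions was not tested.

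Counted over the 6 tested members, dCeMM-1 gave 4 higher and 0 lower, where 16.5% of all tested genes were called higher and 14.8% lower, 31.3% in all. With dCeMM-2, 4 were higher and 1 lower, against 37.1% and 41.2% of genes, 78.3% in all. With dCeMM-3, 2 were higher and 4 lower, against 35.9% and 45.1%, 81.0% in all. Most tested genes were called with dCeMM-2 and with dCeMM-3, so that a call as such says little about the members. Only the direction and size of a call describe them. With dCeMM-4, 4 were higher and 1 lower (32.9% and 35.3% of genes, 68.2% in all), and with THZ531 3 were higher and 2 lower (35.8% and 43.7%, 79.5% in all). The median log2 fold change of the 6 was 0.29 with dCeMM-1, 0.93 with dCeMM-2, -0.91 with dCeMM-3, 0.71 with dCeMM-4 and 0.79 with THZ531.

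Counts on the spike-in scale were lower for dCeMM-1, where edgeR called 0 members, 2 had an unadjusted p under 0.05, and 2.83% of genes were called higher and 1.34% lower, 4.17% in all. DESeq2 with its own size factors called 3 members there, and was not run on the spike-in scale. With dCeMM-2, 1 was higher and 3 were lower, where 1.48% and 83.0% of genes were, 84.4% in all. With THZ531, 1 was higher and 3 were lower, where 1.32% and 84.7% of genes were, 86.0% in all. All 6 were lower with dCeMM-3, as were 83.7% of genes, while 1.12% were higher and 84.9% were called in all. With dCeMM-4, 1 was higher and 2 were lower, where 6.30% and 48.0% of genes were, 54.3% in all. The spike-in medians of the 6 were 0.36, -0.84, -2.74, 0.15 and -1.06 in the order dCeMM-1 to dCeMM-4 and THZ531.

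The 3 compounds known as degraders of cyclin K were given at the same multiple of EC50 and the same time, and each pair was compared. All 6 tested members were higher with dCeMM-2 than with dCeMM-3, where 26.6% of tested genes were higher and 16.5% lower, 43.1% in all. MT1X was 2.91 higher on the log2 scale (95% interval 2.63 to 3.20, adjusted p = 1.33e-21), SLC30A1 2.33 (2.08 to 2.58), MT1E 2.17 (2.03 to 2.30) and MT2A 1.27 (1.14 to 1.40). MTF1 was 0.72 higher (0.34 to 1.10, adjusted p = 0.000773) and MT1F 0.28 (0.09 to 0.47, adjusted p = 0.00917). The spike-in scale gave nearly the same values, since the median of all genes between these compounds was 0.06 there, and called 5 of the 6 higher, where 18.4% of genes were higher and 4.32% lower, 22.8% in all. The exception was MT1F (0.32, adjusted p = 0.369), which was also not called with the size factors of DESeq2 (0.20, 0.0701), by DESeq2 (0.0843) or in a fit of these 2 groups alone (0.25, 0.0643).

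Between dCeMM-2 and dCeMM-4, 3 members were higher and 1 lower, where 38.4% and 38.9% of genes were, 77.3% in all. MT1E was 1.55 higher with dCeMM-2 (95% interval 1.42 to 1.68), MT2A 1.02 (0.89 to 1.15) and MT1X 0.64 (0.42 to 0.87), and MTF1 was lower (-2.35, -2.62 to -2.08). MT1F (0.18, -0.01 to 0.36) and SLC30A1 (-0.21, -0.42 to 0.01) were not called, both with an adjusted p of 0.0566 or 0.0567. A fit of these 2 groups alone called both (0.0190 and 0.0408), DESeq2 called SLC30A1 (0.0191), and so did its size factors (0.0156) and no filter (0.000609). Scaled by spike-ins, MT1E (0.33, adjusted p = 0.130) and MT2A (-0.21, 0.352) did not pass the test. MT1F (-1.04), MT1X (-0.56), SLC30A1 (-1.41) and MTF1 (-3.58) were lower with dCeMM-2 on that scale, where 2.63% of genes were higher and 66.8% lower, 69.5% in all.

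With dCeMM-3, 5 members were lower than with dCeMM-4 and 0 higher, where 41.2% and 41.5% of genes were, 82.7% in all. The differences were -3.07 for MTF1 (95% interval -3.36 to -2.78), -2.54 for SLC30A1 (-2.78 to -2.30), -2.27 for MT1X (-2.56 to -1.98), -0.62 for MT1E (-0.75 to -0.48) and -0.25 for MT2A (-0.38 to -0.12). MT1F did not pass the test (-0.10, -0.29 to 0.08, adjusted p = 0.272). By spike-in scaling all 6 were lower with dCeMM-3, where 5.35% of genes were higher and 65.3% lower, 70.7% in all. THZ531 was given at a dose that is not matched, and its values stand beside those of dCeMM-2 above without a comparison.

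Other zinc transporters gave a mixed picture. Of 10 further genes, SLC30A2 to SLC30A10 of the family that moves zinc out of the cytosol and the zinc transporter gene TMEM163, 6 could be tested. With dCeMM-4, 2 were higher and 4 lower, with dCeMM-3 3 and 3, with THZ531 2 and 3, with dCeMM-2 2 and 3, and with dCeMM-1 edgeR called 0 of 6, with 0 at an unadjusted p under 0.05. Over all tested genes 68.2% were called with dCeMM-4, 81.0% with dCeMM-3, 79.5% with THZ531, 78.3% with dCeMM-2 and 31.3% with dCeMM-1, and the counts are to be read against these shares. The list medians were 0.02, -0.35, -0.02, -0.90 and -0.07 for dCeMM-1 to dCeMM-4 and THZ531, to be read beside the medians of all genes given above. SLC30A3 rose by 1.87 with dCeMM-4, 1.50 with dCeMM-2, 1.00 with THZ531 and 0.96 with dCeMM-3. Its rise with dCeMM-4 was also called on the spike-in scale (1.36, adjusted p = 8.39e-09), where it was not called with dCeMM-2 (-0.23) and was lower with dCeMM-3 (-0.82) and THZ531 (-0.79). SLC30A5 and SLC30A6, zinc transporters of the secretory pathway, fell with all 4 of these compounds on both scales, by 1.53 and 1.83 with dCeMM-4 and by 1.50 and 1.27 with dCeMM-2.

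Of 14 SLC39 genes, which bring zinc into the cytosol, 11 could be tested. With dCeMM-1, 2 were higher and 5 lower, with dCeMM-2 2 and 3, with dCeMM-3 5 and 3, with dCeMM-4 2 and 4, and with THZ531 2 and 3, where 31.3%, 78.3%, 81.0%, 68.2% and 79.5% of all tested genes were called in either direction. SLC39A3 fell by 1.60 with THZ531, 1.43 with dCeMM-3 and 1.23 with dCeMM-2. With dCeMM-1, SLC39A4 fell by 0.59 and SLC39A10 and SLC39A14 by 0.41 each, and none of these falls was called on the spike-in scale. SLC39A14 also fell by 0.52 with dCeMM-2, and SLC39A10 by 0.39 with dCeMM-2 and 0.35 with dCeMM-4. SLC39A4 and SLC39A11 fell with dCeMM-4 by 0.88 and 0.83, while SLC39A11 rose by 0.56 with dCeMM-3 and 0.40 with THZ531 relative to the other genes. The list medians were -0.20, -0.01, 0.15, -0.01 and 0.06 in the same order of compounds. By spike-in scaling all 11 were lower with THZ531, dCeMM-2 and dCeMM-3, 7 were lower with dCeMM-4, and with dCeMM-1 edgeR called 0, with 2 at an unadjusted p under 0.05. Of all genes, 84.7%, 83.0% and 83.7% were lower with the first 3 and 48.0% with dCeMM-4, so that a lower call there is common.

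Genes of copper and iron handling moved in both directions. Of 12 copper genes, 5 were higher and 4 lower with dCeMM-2, 6 and 3 with dCeMM-3, 4 and 4 with dCeMM-4, 5 and 4 with THZ531 and 0 and 2 with dCeMM-1, against 78.3%, 81.0%, 68.2%, 79.5% and 31.3% of all tested genes called. SLC31A2, a copper transporter, fell by 3.52 with dCeMM-2, 2.98 with THZ531, 2.57 with dCeMM-3 and 1.64 with dCeMM-4. SOD1, the copper and zinc superoxide dismutase, rose by 0.70 with dCeMM-2 and 0.77 with THZ531 and was lower on the spike-in scale (-1.08 in both). With dCeMM-3 SOD1 averaged 255 CPM against 157 in DMSO. SCO2, a copper chaperone of cytochrome oxidase, fell by 3.19 with dCeMM-3. It also fell by 0.51 with dCeMM-1, which was not called on the spike-in scale (-0.45). SCO2 averaged 14.0 CPM with THZ531, 19.2 with dCeMM-2 and 27.2 with dCeMM-4 against 23.0 in DMSO. The list medians were -0.02, -0.01, 0.17, -0.01 and 0.14, and on the spike-in scale all 12 genes were lower with THZ531, dCeMM-2 and dCeMM-3 and 7 with dCeMM-4, where 84.7%, 83.0%, 83.7% and 48.0% of all genes were lower.

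Of 11 tested iron genes, 8 were higher and 2 lower with dCeMM-4, 5 and 4 with dCeMM-2, 4 and 7 with dCeMM-3, 4 and 4 with THZ531 and 1 and 3 with dCeMM-1. The shares of all genes called higher and lower were 32.9% and 35.3% with dCeMM-4, 37.1% and 41.2% with dCeMM-2, 35.9% and 45.1% with dCeMM-3, 35.8% and 43.7% with THZ531 and 16.5% and 14.8% with dCeMM-1. The ferritin genes FTL and FTH1, which encode the iron storage protein, rose with dCeMM-2 by 1.12 and 1.46 and with THZ531 by 1.20 and 1.48 relative to the other genes. Scaled by spike-ins, FTL was lower in both (-0.67 and -0.64) and FTH1 was not called (-0.33 and -0.38). FTL also rose by 1.03 with dCeMM-3 and FTH1 by 0.68 with dCeMM-4. On the spike-in scale the former was lower (-0.81) and the latter not called (0.11). FTH1 averaged 693 CPM with dCeMM-3 against 275 in DMSO, and FTL 741 CPM with dCeMM-4 against 555. TFRC, the transferrin receptor, fell by 1.71 with dCeMM-3, 1.09 with dCeMM-2 and 0.56 with dCeMM-1. The last of these falls was not called on the spike-in scale. TFRC averaged 1221 CPM with THZ531 and 2073 with dCeMM-4 against 2330 in DMSO. The list medians were 0.02, 0.11, -0.67, 0.42 and 0.09. With dCeMM-4 the spike-in scale gave 1 gene higher and 3 lower in place of 8 and 2, where 6.30% and 48.0% of all genes were.

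Of 11 tested genes of the oxidative and metal stress list, 8 were higher and 1 lower with dCeMM-4, 4 and 7 with each of dCeMM-2, dCeMM-3 and THZ531, and 2 and 1 with dCeMM-1. With dCeMM-4, 32.9% of all genes were higher and 35.3% lower, and 78.3%, 81.0%, 79.5% and 31.3% were called in the other comparisons in the order given. SLC7A11, the cystine transporter, rose by 3.80 with THZ531, 3.59 with dCeMM-3 and 3.05 with dCeMM-2, and by 1.97, 1.80 and 1.30 on the spike-in scale, where it was the only member of the list called higher. With dCeMM-1 it fell by 0.36, not called on the spike-in scale (-0.27, adjusted p = 0.618). With dCeMM-4 SLC7A11 averaged 23.7 CPM against 12.6 in DMSO, and it was not called higher on the spike-in scale. GCLC, a subunit of the enzyme that starts glutathione synthesis, fell by 2.54 with dCeMM-3 and 1.72 with THZ531. With dCeMM-2 GCLC averaged 35.6 CPM against 74.0 in DMSO. It rose by 0.68 with dCeMM-4, the rise not being called on the spike-in scale (0.10, 0.709). TXN, thioredoxin, rose by 1.25 with both dCeMM-2 and THZ531 and was lower on the spike-in scale (-0.54 and -0.60). It also rose by 0.71 with dCeMM-4, which was not called on the spike-in scale (0.14). With dCeMM-3 TXN averaged 272 CPM against 138 in DMSO. The list medians were -0.01, -0.64, -1.07, 0.45 and -0.39. With dCeMM-4 the spike-in scale gave 0 genes higher and 3 lower in place of 8 and 1, against 6.30% and 48.0% of all genes.

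Of 10 glucocorticoid-responsive genes, 8 were higher and 1 lower with dCeMM-4, and 2 were higher and 8 lower with dCeMM-3. With dCeMM-2 3 were higher and 4 lower, with THZ531 3 and 5 and with dCeMM-1 1 and 3. Among all tested genes 32.9% were higher and 35.3% lower with dCeMM-4, 35.9% and 45.1% with dCeMM-3, 37.1% and 41.2% with dCeMM-2, 35.8% and 43.7% with THZ531 and 16.5% and 14.8% with dCeMM-1. SGK1, a kinase of sodium transport and cell survival, rose by 4.34 with dCeMM-2, 3.89 with THZ531 and 1.67 with dCeMM-4, and was higher on the spike-in scale too (2.60, 2.09 and 1.15). TSC22D3, which encodes the glucocorticoid-induced leucine zipper, rose by 1.25 with THZ531, 1.90 with dCeMM-2 and 1.89 with dCeMM-3. Scaled by spike-ins it was lower with THZ531 (-0.58, adjusted p = 0.00955) and not called with dCeMM-2 (0.14) or dCeMM-3 (0.09). FKBP5, another gene of the list, fell by 0.71 with dCeMM-2 and 0.45 with dCeMM-1, the latter not being called on the spike-in scale. FKBP5 averaged 108 CPM with dCeMM-3, 124 with THZ531 and 176 with dCeMM-4, against 147 in DMSO. The list medians were -0.11, -0.10, -1.22, 0.59 and -0.25. With dCeMM-4 the spike-in scale gave 3 genes higher and 2 lower in place of 8 and 1, and with dCeMM-3 it gave 0 and 9, where 6.30% and 48.0% of all genes were higher and lower with dCeMM-4 and 1.12% and 83.7% with dCeMM-3.

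**Figure D5:**
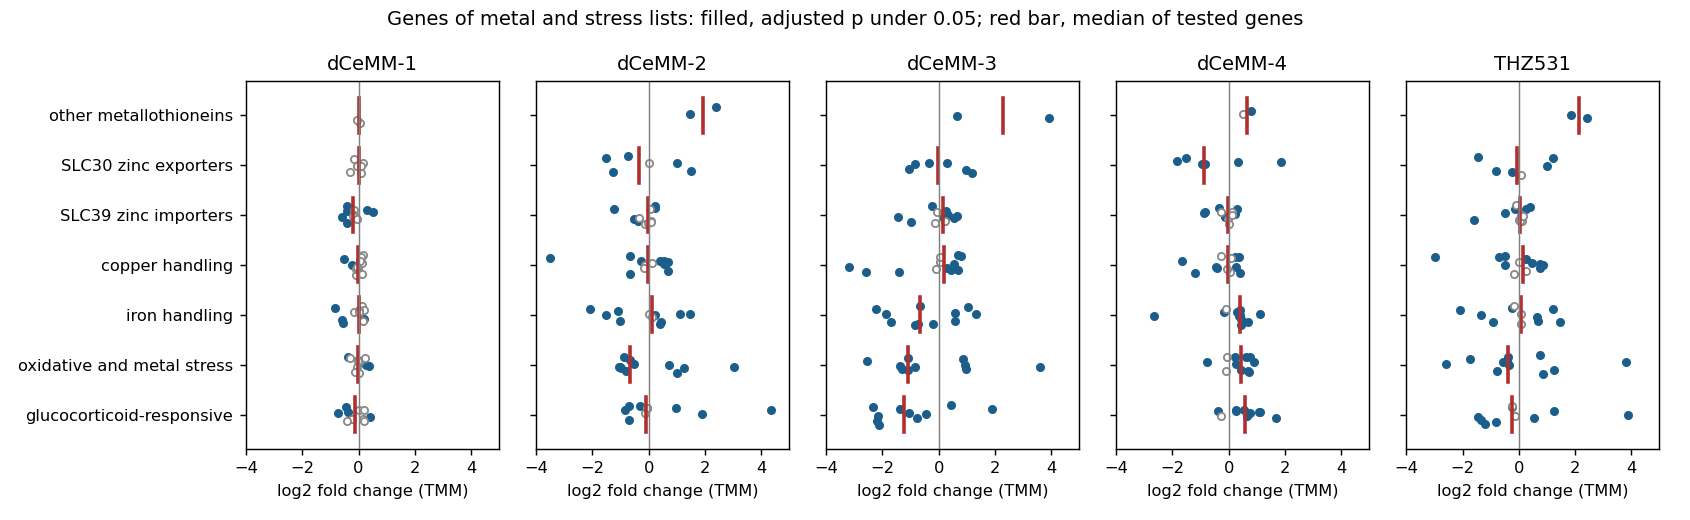
Log2 fold change against DMSO (TMM scale) of every tested gene of the metal and stress lists, 1 panel per compound, with filled points for genes with an adjusted p under 0.05 and a red bar at the list median. The lists spread to both sides of 0, and the glucocorticoid-responsive list lies mostly above 0 with dCeMM-4 and mostly below it with dCeMM-3.

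Cell type markers were low or differed between groups. The summed level of 10 blood cell markers was 1876 to 2019 CPM in DMSO, 1669.9 to 1751 with dCeMM-1, 1516 to 1587 with dCeMM-4, 987 to 1047 with dCeMM-2, 948 to 1012 with dCeMM-3 and 876 to 965 with THZ531. Members of this list did not all move alike. MYB averaged 804 CPM in DMSO and 187, 91.1 and 106 with dCeMM-2, dCeMM-3 and THZ531. PTPRC averaged 442 CPM in DMSO, 478, 662 and 530 with the same compounds and 226 with dCeMM-4. The summed level of 6 lymphoid markers was 71.3 to 78.8 CPM in DMSO, 156 to 170.2 with dCeMM-2, 160.2 to 175 with THZ531 and 160.0 to 196 with dCeMM-3, with 4 of the 6 above 1 CPM in each. Most reads of this list were of CD3D, with 24166 over all libraries against 2530 for the next, NKG7. The sum of 5 epithelial markers, mostly KRT8 and KRT18, was 62.6 to 69.3 CPM in DMSO and 117 to 132 with dCeMM-2. Of 8 erythroid and megakaryocyte markers, 3 had no reads in any library and the sum was at most 6.95 CPM. The sum of 5 fibroblast markers was at most 5.20 CPM. The part of these genes in the metallothionein values was not tested.

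Across the 18 libraries on the TMM scale, MT1E and MT2A had a Pearson correlation of log2 CPM of 0.97, MT1E and MT1X 0.78, and MT1E and MT1F -0.11. MTF1 correlated with MT2A at -0.66 and with SLC30A1 at 0.65, and SLC30A1 with MT1X at 0.73. These values describe 6 groups of 3 libraries that share their treatments, and carry no test. Among 9872 genes compared, those whose profile was most like the mean of the tested metallothionein members were JUNB (0.968), KLF10 (0.961), ID1 (0.958), TXNIP (0.957), CDKN1A (0.951), TUBB2A (0.945), ID2 (0.945) and SGK1 (0.938). JUNB, a subunit of the AP-1 transcription factor, had log2 fold changes of 2.53 with dCeMM-2, 2.64 with THZ531, 1.00 with dCeMM-4, -0.26 with dCeMM-3 and -0.31 with dCeMM-1. CDKN1A, the cell cycle inhibitor p21, had 4.09, 4.71, 2.09, 0.84 and 0.34 in the same order.

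The genes most like SLC30A1 were SPTY2D1 (0.985), RLF (0.983), MXD1 (0.983), ZIC2 (0.982) and ABI1 (0.982). SPTY2D1, a histone chaperone gene, had log2 fold changes of 0.67 with dCeMM-2, -2.42 with dCeMM-3, 1.11 with dCeMM-4 and -0.28 with THZ531, where SLC30A1 had 0.37, -1.96, 0.57 and -0.36. Those most like MTF1 were IL4R, PPFIA1, GOLPH3, NCOA6 and SAP130, each at 0.992. IL4R, the receptor of interleukin 4, had -2.02 with dCeMM-2, -2.52 with dCeMM-3, -0.40 with dCeMM-4 and -2.23 with THZ531, where MTF1 had -2.52, -3.24, -0.17 and -2.52.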

How the data were processed

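RNA was measured in 18 libraries, 3 per group, and all were used. The values are raw read counts per gene deposited by the authors, 1 table per library, with no normalization. Tools named in the submitters' processing notes are HTSeq 0.11.2, STAR 2.5.2b, Trimmomatic 0.32 and Picard, with the build GRCh38.p7. Their roles, whether counting used strand and whether molecular identifiers were used are not given in the sources used here. Reads placed at several positions appear only in a summary line and were kept out of gene counts and library sizes, as were 92 ERCC and 7 SIRV sequences. Of 58051 identifiers, 57447 matched GENCODE 29.

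Genes passing edgeR's filterByExpr (15055, including 6 of the 7 members) were scaled by TMM and fitted with edgeR 4.0.16 in R 4.3.3 by the quasi-likelihood test on all 18 libraries, with 1 coefficient per group and 12 residual degrees of freedom. The common dispersion was 0.00439. There were 8 comparisons: 5 of a compound against DMSO, and the 3 pairs among dCeMM-2, -3 and -4. Adjusted p-values are Benjamini-Hochberg values over all tested genes within a comparison. The 95% intervals use a t distribution with 12 degrees of freedom. Spike-in scaling replaced TMM with the summed ERCC and SIRV counts. The amount of spike-in per cell is not given in the sources used here. The procedure was tested on simulated data.

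Members and lists were chosen with earlier results of these data known. Named genes are all members, up to 3 called genes of each list with the lowest adjusted p per comparison with DMSO, other metallothionein genes with at least 10 counts, and the genes with profiles most like the members, by Pearson r of log2 CPM with a pseudocount of 0.5 and a mean of at least 5 CPM. Replicates with the same number did not pair: the correlation of their deviations ranged from -0.19 to 0.19 and no comparison had all 3 pairs above 0.1. Alternatives were spike-in scaling, DESeq2 1.42.0 and its size factors, no filter, TMM without mitochondrial and ribosomal protein genes, a replicate block, fits of 2 groups, and leaving out each library.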

Additional observations from a re-analysis of the deposited data

How the results depend on the processing

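Spike-in scaling was the alternative that changed most. Under it the number of members called fell from 4 to 0 with dCeMM-1, where the share of all genes called fell from 31.3% to 4.17%. The number fell from 5 to 3 with dCeMM-4, where that share fell from 68.2% to 54.3%. With dCeMM-1 the log2 fold change and the SE of each tested member were higher on the spike-in scale. MT2A had 0.45 (SE 0.20) there against 0.38 (SE 0.06). With dCeMM-2 the calls went from 4 higher and 1 lower to 1 and 3, and with THZ531 from 3 and 2 to 1 and 3. The shares of all genes called went from 78.3% to 84.4% and from 79.5% to 86.0%. In all, 9 log2 fold changes turned: MT1X with dCeMM-2 (-0.28), SLC30A1 with dCeMM-2 (-1.40), MT1E and MT2A with dCeMM-3 (-1.47 and -0.99), MT1F and MT1X with THZ531 (-1.82 and -0.29), and MT1F, MT1X and MT2A between dCeMM-2 and dCeMM-4 (-1.04, -0.56 and -0.21). The median of all tested genes differed between the TMM and spike-in scales too, at -0.02 and -1.80 with dCeMM-2. Between dCeMM-2 and dCeMM-4 it was 0.06 and -1.15. What lies behind the difference between the scales was not tested. The value of MT1F with THZ531, near 0, also turned without the filter (-0.053), and ranged from -0.0083 (without THZ531 replicate 3) to 0.046 when 1 library was left out, with -0.0044 without DMSO replicate 1. Leaving out 1 library at a time gave 2 to 4 members called with dCeMM-1, the lowest without DMSO replicate 2 or 3, and 4 to 5 between dCeMM-2 and dCeMM-4. The other 6 comparisons kept their number of called members in each such fit.

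With the replicate number as a block, SLC30A1 was called between dCeMM-2 and dCeMM-4 (-0.20, adjusted p = 0.0469), so that 5 members were called there against 4 without the block, and no other call changed. Of 24 libraries compared, 10 correlated best with their own number. Without the filter MT1G was called higher with dCeMM-2 and THZ531 (adjusted p = 0.0310 and 0.0211), on 6 and 7 reads against 0. The counts of MT1G limit what can be said of it, and DMSO replicate 3, with 4598576 gene counts, limits the precision of the DMSO group.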
